A study of Mus musculus with 8 samples.

Results

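The Toll-like receptors and their chaperone Unc93b1 were followed in cultured mouse microglia, the resident macrophages of the brain, with and without IgG. The members were the rows of the deposited count table whose GENCODE symbol is Tlr1, Tlr2, Tlr3, Tlr4, Tlr6, Tlr7, Tlr8, Tlr9, Tlr13 or Unc93b1, which gave 10 of 55385 genes. For comparison they were divided by the place where the receptor works into 4 surface receptors (Tlr1, Tlr2, Tlr4 and Tlr6) and 5 endosomal receptors (Tlr3, Tlr7, Tlr8, Tlr9 and Tlr13), with Unc93b1 by itself. The study asked how IgG acts on microglia, and RNA sequencing compared 4 control with 4 IgG libraries. All cells were wild-type primary microglia from the neocortex and hippocampus of newborn mice, with the brains pooled. They were shaken off a mixed culture grown in 10% serum after 12 days and kept in plates for 3 days before treatment. The IgG group received 10 µg/ml IgG for 24 h at DIV15. The control cultures are labelled untreated, and the study's methods name PBS. Libraries with 1 number in both groups carry the same date in the labels, which do not say what it is a date of, and form 4 pairs, and a change within a pair is IgG minus control of that pair.

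Toll-like receptors are membrane proteins that recognise molecules of microbes. The surface receptors bind lipids and lipoproteins of bacterial walls, whereas the endosomal receptors bind nucleic acids that have been taken up by the cell. Unc93b1 binds the endosomal receptors in the endoplasmic reticulum and carries them to the endosome, and without it they do not signal. Most of the receptors signal through the adaptor Myd88 to NF-kB and interferon regulatory factors, and microglia are the main cells of the brain that express them.

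The libraries held 21287816 to 23703216 counts. A count of 0 leaves room for up to 3 counts, or 0.127 to 0.141 CPM (counts per 10 to the power 6 counts of the library) before TMM scaling. These limits cover counting error only. All other CPM values are after TMM scaling. After a filter on low counts 17537 genes were tested, and all 10 members passed. Counts of mitochondrial genes took 4.85% of IgG library 1 and 5.59% of IgG library 3, against 1.97% to 2.41% of the other 6 libraries. Pairs 1 and 3, to which these libraries belong, also differed from the others in how the change of a gene depended on its GC content, and results are therefore given for each pair. The 11 markers of microglia summed to 7900 to 8660 CPM in the control and 8500 to 9480 CPM in the IgG libraries. Markers of the oligodendrocyte lineage were also present, with sums of 1190 to 1810 CPM in the control and 1020 to 1700 CPM in the IgG libraries. In bulk RNA, fewer cells of a type and less RNA per cell cannot be told apart.

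The sequences matter first for Tlr1 and Tlr6, neighbours on chromosome 5 whose messages are partly identical. Tlr1 (ENSMUSG00000044827) lies at chr5:64924679-64933563 and Tlr6 (ENSMUSG00000051498) at chr5:64952031-64960097, both on the minus strand of GRCm38. Of the 50-base words in the exons of Tlr1, 13.6% also occurred in Tlr6, and 12.3% of those in Tlr6 occurred in Tlr1. Tlr1 shared words with 307 genes in all, which brought its shared portion to 15.4%. A read from such a stretch cannot be assigned to either gene by its sequence. Across both genes the longest identical run had 229 bases, inside the coding sequence of each, at chr5:64925537-64925765 in Tlr1 and at chr5:64953828-64954056 in Tlr6, and it is shown to mark where the counts of both genes are uncertain.
Tlr1 and Tlr6: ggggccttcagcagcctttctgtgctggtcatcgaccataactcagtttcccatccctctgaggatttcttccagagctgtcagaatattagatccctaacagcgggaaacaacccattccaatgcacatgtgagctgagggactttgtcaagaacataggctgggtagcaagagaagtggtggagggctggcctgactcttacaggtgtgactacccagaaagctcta
No other member shared a 50-base word with another member. In Tlr3, 381 bases of exon, or 7.32%, lie across from the antisense gene Gm45542, and the use of strand in counting is not given in the sources used here.

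The other genes lie apart, except for 2 receptors side by side on the X chromosome. Tlr8 (ENSMUSG00000040522) at chrX:167242696-167264329 and Tlr7 (ENSMUSG00000044583) at chrX:167304929-167330558 are both on the minus strand. Tlr13 (ENSMUSG00000033777) is elsewhere on that chromosome, at chrX:106143204-106160493 on the plus strand. The positions of the rest are chr3:83836272-83841767 on the minus strand for Tlr2 (ENSMUSG00000027995), chr4:66827584-66930284 on the plus strand for Tlr4 (ENSMUSG00000039005) and chr8:45395665-45411080 on the minus strand for Tlr3 (ENSMUSG00000031639). Tlr9 (ENSMUSG00000045322) is at chr9:106222598-106226883 and Unc93b1 (ENSMUSG00000036908) at chr19:3935186-3949340, both on the plus strand. All 10 are annotated as protein-coding genes in GENCODE M21.

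In RefSeq's table of promoters (GRCm38.p6) 7 of the 10 members had an entry, and Tlr4, Tlr7 and Unc93b1 had none. The table was searched in the 250 bases before each start, on both strands, for the letters GAGGAA, the core that the myeloid transcription factor PU.1 binds. The 7 members had 9 promoter windows, of which 4 held these letters (1 each of Tlr1, Tlr8, Tlr9 and Tlr13), against 23.3% of all 32851 windows. A match is a description of the letters and not a measured site, and the motif was chosen after the values were seen. The bases before the start that lie outside any annotated exon are shown for these genes because their windows held the letters. The windows of Tlr2, Tlr3 and Tlr6 did not hold them. Tlr3, like Tlr8 and Tlr13, is an endosomal receptor that was lower in pair 4, and Tlr9 was only slightly lower there. A relation between the letters and the changes with IgG was not tested. Capitals mark GAGGAA, or TTCCTC where it lies on the other strand. The stretches are chr5:64933564-64933808 (minus) for Tlr1, chrX:167264330-167264579 (minus) for Tlr8, chr9:106222348-106222597 (plus) for Tlr9 and chrX:106143025-106143203 (plus) for Tlr13.
Tlr1: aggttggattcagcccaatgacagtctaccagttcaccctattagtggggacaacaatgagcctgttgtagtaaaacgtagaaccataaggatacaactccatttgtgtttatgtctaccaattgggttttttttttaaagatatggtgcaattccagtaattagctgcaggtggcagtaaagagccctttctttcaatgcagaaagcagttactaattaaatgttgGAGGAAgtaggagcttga
Tlr8: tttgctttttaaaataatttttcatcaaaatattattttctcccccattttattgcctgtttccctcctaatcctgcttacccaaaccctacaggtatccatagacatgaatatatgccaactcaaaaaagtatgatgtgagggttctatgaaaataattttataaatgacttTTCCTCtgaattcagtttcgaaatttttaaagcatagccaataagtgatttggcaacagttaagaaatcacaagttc
Tlr9: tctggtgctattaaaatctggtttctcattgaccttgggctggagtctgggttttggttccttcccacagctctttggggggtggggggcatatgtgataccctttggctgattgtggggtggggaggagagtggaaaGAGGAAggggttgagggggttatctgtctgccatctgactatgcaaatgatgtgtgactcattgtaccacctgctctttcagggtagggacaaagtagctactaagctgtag
Tlr13: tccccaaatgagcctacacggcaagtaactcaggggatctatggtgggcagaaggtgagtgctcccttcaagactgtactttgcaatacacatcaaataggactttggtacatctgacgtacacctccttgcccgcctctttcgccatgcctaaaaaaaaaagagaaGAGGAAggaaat
Counted back from the RefSeq start, the motif begins 23 bases before it in Tlr1, 77 in Tlr8, 112 in Tlr9 and 83 in Tlr13. The stretches shown for Tlr1 and Tlr13 end short of that start, where an annotated exon begins. The letters TTCNNNGAA of an interferon-gamma activated site occurred before Tlr8, beginning 106 bases before the start, and before another start of Tlr1, where they lie in an exon, against 7.02% of all promoters.

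Without IgG the microglia carried messages of all 10 members, at levels that differed widely. Levels of different genes were compared as RPKM (CPM per kilobase of exon), with exon lengths from the annotation. Unc93b1 was the highest, at 176 ± 8.34 RPKM (SD, n = 4 control libraries). Below it came Tlr7 at 63.8 ± 5.36 RPKM and Tlr13 at 58.0 ± 2.41 RPKM, whose control ranges overlapped. The lower ranges were those of Tlr2, at 39.1 ± 1.97 RPKM, and then Tlr1 at 23.3 ± 2.39 RPKM and Tlr8 at 23.05 ± 0.0678 RPKM, which overlapped. Tlr4 at 11.5 ± 1.23 RPKM overlapped with Tlr9 at 11.3 ± 1.83 RPKM, and Tlr9 with Tlr6 at 8.94 ± 1.02 RPKM. Tlr3, the sensor of long RNA duplexes, was the lowest, at 4.00 ± 0.541 RPKM. Thus the chaperone exceeded each receptor it carries, and the most abundant receptors on this scale were the RNA sensors Tlr7 and Tlr13, of which the second recognises bacterial ribosomal RNA in the mouse. The order of the IgG means was the same except that Tlr9, at 16.3 ± 6.30 RPKM, stood above Tlr4, at 14.4 ± 6.06 RPKM, with wide overlap.

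**Figure D1:**
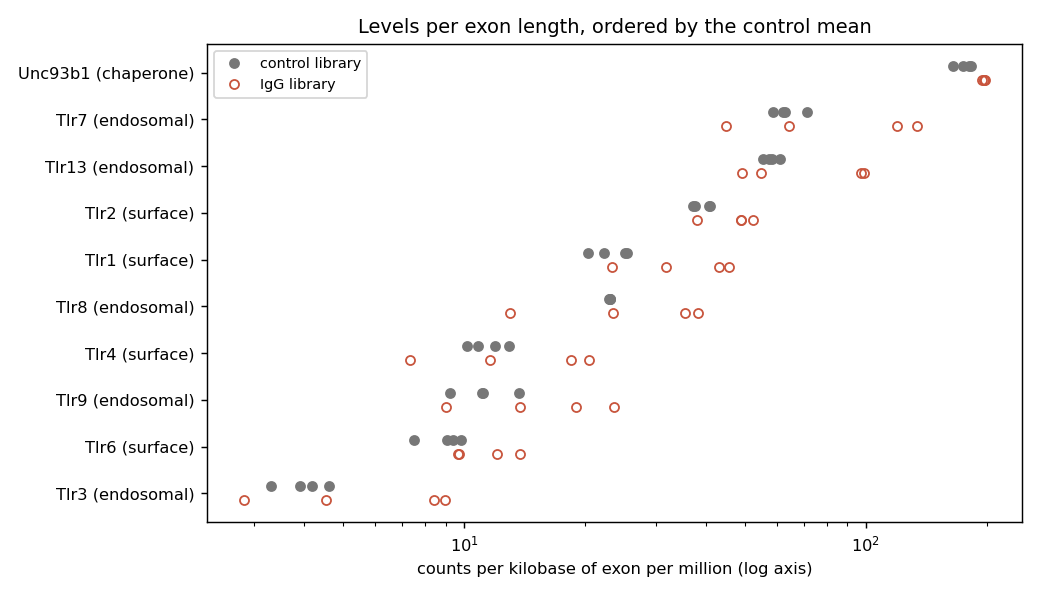
Level of each gene in RPKM on a log axis, with filled points for the 4 control and open points for the 4 IgG libraries, ordered by the control mean. Control points lie close together for every gene, while the IgG points of the endosomal receptors and Tlr4 spread to both sides of them, as for Tlr7 from 44.9 to 134.

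Of the remaining receptors of the family, Tlr5 and Tlr11 were near or under the detection limit, and Tlr12 was low but above it. Tlr5, the flagellin receptor, had 0, 0, 1 and 0 counts in control libraries 1 to 4 and 0, 1, 3 and 1 in IgG libraries 1 to 4. Tlr11 had a count of 0 in all 8 libraries. Tlr12 had 14, 14, 20 and 13 counts in the control and 33, 14, 14 and 23 in the IgG libraries. It was tested and did not pass the adjustment (log2 fold change 0.52, adjusted p = 0.619 by edgeR's quasi-likelihood test).

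With IgG all 10 members had a fitted log2 fold change above 0, but none passed the adjustment over all genes. The fit was edgeR's quasi-likelihood test with the replicate number as a block and Benjamini-Hochberg adjustment over 17537 genes. At an adjusted p under 0.05 it called 69 genes, all higher with IgG, which is 0.393% of those tested, and 0 members, while DESeq2 with the block called 1 member, Tlr1. At an unadjusted p under 0.05 there were 5 members (Tlr1, Tlr2, Tlr3, Tlr6 and Tlr9), all higher, where 6.35% of all genes tested were higher and 3.85% lower at this p. The share of all genes with a log2 fold change above 0 was 49.1%. By the criterion of the study, an unadjusted p under 0.01 with an absolute log2 fold change above 0.5, Tlr1 was called higher and no member lower, where 1.48% of all genes were called higher and 0.342% lower. Without the block 0 genes passed the adjustment, 3 members (Tlr1, Tlr2 and Tlr6) had an unadjusted p under 0.05, where 4.83% of all genes did on the higher side, and Tlr1 again met the criterion, with 0.582% of all genes.

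Among the surface receptors, Tlr1, Tlr2 and Tlr6 were higher with IgG in each of the 4 pairs, while Tlr4 was not. Tlr1 pairs with Tlr2 to recognise triacylated bacterial lipopeptides. Its level was 84.9, 74.7, 84.0 and 68.1 CPM in control libraries 1 to 4 and 153, 106, 144 and 78.2 CPM in IgG libraries 1 to 4. The IgG libraries of pairs 1, 2 and 3 exceeded every control library, and the fourth lay inside the control range. The log2 fold change of Tlr1 was 0.59 (SE 0.12), with an adjusted p of 0.128 by edgeR. The study placed Tlr1 among the genes it selected on these libraries, so its call by the criterion is not independent evidence. The adjusted p of Tlr1 moved across the threshold with the processing. It was 0.00533 by DESeq2, 0.00338 by edgeR's likelihood ratio test and 0.692 by edgeR without the block.

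Tlr2 is the shared partner of Tlr1 and Tlr6 in the recognition of lipoproteins. Its level was 113, 112, 122 and 123 CPM in the control and 147, 114, 158 and 148 CPM in the IgG libraries. The second IgG library fell within the control range and the other 3 lay above it. The log2 fold change was 0.26 (SE 0.09, adjusted p = 0.44 by edgeR). Tlr6, which joins Tlr2 in binding diacylated lipopeptides, was at 36.6, 33.7, 35.05 and 27.9 CPM in the control and 45.0, 36.0, 51.2 and 36.2 CPM in the IgG libraries. Here the groups overlapped because control library 1 lay above IgG libraries 2 and 4. Its log2 fold change was 0.33 (SE 0.10, adjusted p = 0.367 by edgeR). The log2 ratio of Tlr1 to Tlr6 per exon length was 1.37, 1.30, 1.42 and 1.44 in the control libraries and 1.92, 1.72, 1.65 and 1.26 in the IgG libraries, so it was higher with IgG in pairs 1, 2 and 3 and lower in pair 4. How reads that match both genes were counted is not given in the sources used here.

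Tlr4, the receptor for lipopolysaccharide, behaved otherwise. Its level was 71.9, 60.1, 66.2 and 56.4 CPM in the control and 113, 64.3, 102 and 40.8 CPM in the IgG libraries. The IgG libraries of pairs 1 and 3 lay above every control library and that of pair 4 below every one. The log2 fold change of 0.24 (SE 0.18, adjusted p = 0.651 by edgeR) stands beside changes of 0.66, 0.10, 0.63 and -0.47 within the pairs. It was -0.18 when the fit was restricted to pairs 2 and 4.

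**Figure D2:**
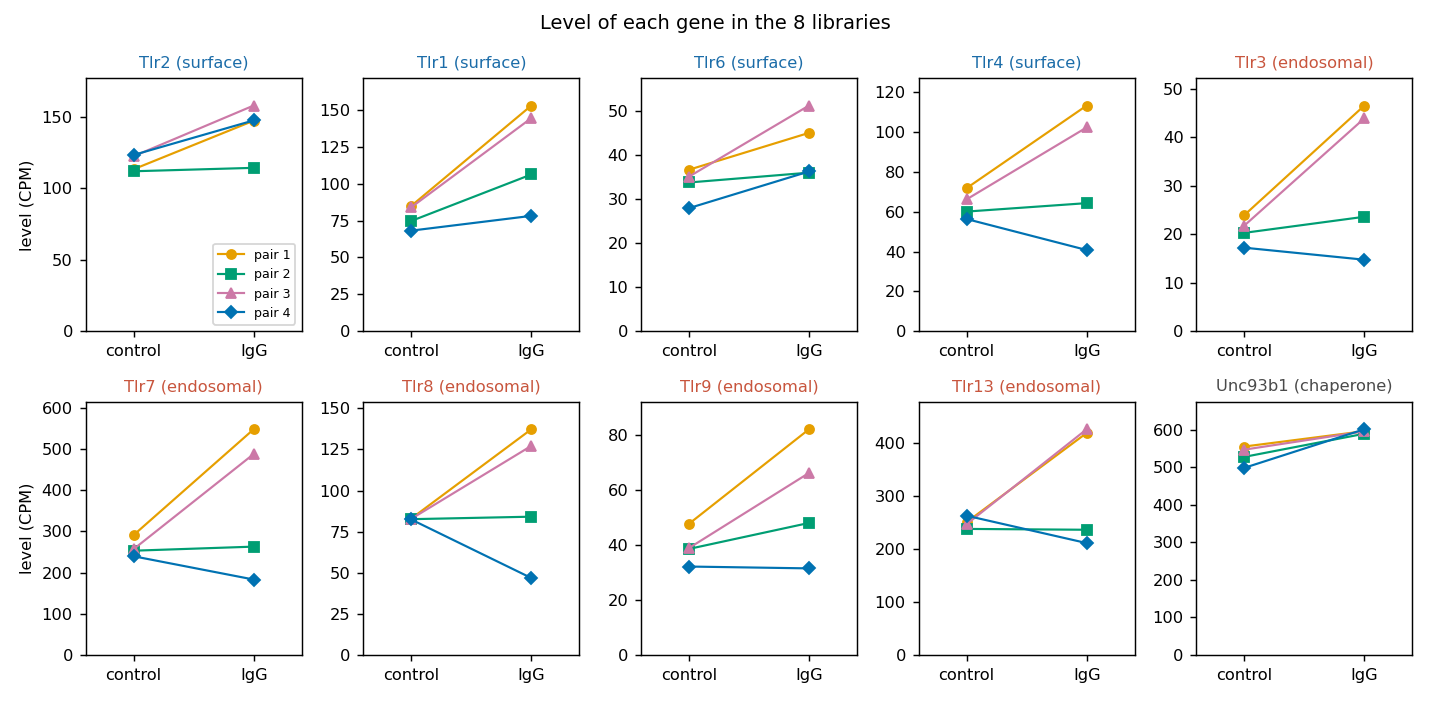
Level of each gene in CPM (vertical axes from 0) in the control and IgG library of each pair, with a line joining the libraries of a pair. For the endosomal receptors and Tlr4 the IgG value lies well above control in pairs 1 and 3. In pair 4 the IgG value lies below control, for Tlr9 only slightly. By contrast, the 4 IgG values of Unc93b1 meet between 589.7 and 602.

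All 5 endosomal receptors had the pattern of Tlr4, with higher levels in pairs 1 and 3 and a smaller change in pair 2. In pair 4 their level was lower, for Tlr9 only within counting error. Tlr7 senses RNA rich in uridine and guanosine. It was at 291, 253, 257 and 239.8 CPM in the control and 549, 263, 488 and 183 CPM in the IgG libraries. The change within the pairs was 0.91, 0.06, 0.93 and -0.39 on the log2 scale, and the fitted log2 fold change was 0.38 (SE 0.22, adjusted p = 0.571 by edgeR). Tlr8, its neighbour on the X chromosome, is a related receptor for RNA products. Its level was 82.9, 82.6, 82.8 and 82.4 CPM in the control and 137, 84.1, 127 and 46.75 CPM in the IgG libraries. The control values lay closer together than counting error alone gives on average (SD 0.243 CPM, against 1.88 CPM from the counts), whereas the IgG libraries differed by 0.73 above to -0.82 below their control libraries on the log2 scale. Tlr8 had the lowest fitted log2 fold change of the members, 0.15 (SE 0.23, adjusted p = 0.829 by edgeR), and it turned to -0.0515 without pair 1 and to -0.015 without pair 3. The log2 ratio of Tlr7 to Tlr8 per exon length was 1.62, 1.43, 1.45 and 1.35 in the control libraries and 1.81, 1.46, 1.75 and 1.78 in the IgG libraries, higher with IgG in each pair.

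Tlr13 was at 251, 238, 247 and 263 CPM in the control and 420, 236, 426 and 211 CPM in the IgG libraries. IgG libraries 1 and 3 were far above the controls, and library 4 was below every one of them. Library 2 was below the lowest control by less than the counting SD (3.27 CPM in the control and 3.84 CPM in the IgG group). The log2 fold change of Tlr13 was 0.30 (SE 0.19, adjusted p = 0.595 by edgeR). Tlr3, which unlike the other endosomal receptors signals through the adaptor Ticam1, was at 23.9, 20.3, 21.8 and 17.2 CPM in the control and 46.6, 23.6, 43.9 and 14.75 CPM in the IgG libraries. Its changes in pairs 1 and 3, 0.96 and 1.01 on the log2 scale, were the largest of any member in any pair. The fitted log2 fold change was 0.51 (SE 0.20, adjusted p = 0.472 by edgeR), and it was 0.0035 with pairs 2 and 4 alone. Tlr9, the sensor of unmethylated CpG DNA, was at 47.6, 38.5, 38.8 and 32.1 CPM in the control and 81.9, 47.9, 66.1 and 31.4 CPM in the IgG libraries. It differed from the other endosomal receptors in a change of 0.32 in pair 2, and its change in pair 4 was small, at -0.03. Its levels in pair 4, 32.1 and 31.4 CPM, differed by less than the counting SD (1.3 CPM in the control and 1.61 CPM in the IgG group). The log2 fold change of Tlr9 was 0.46 (SE 0.15, adjusted p = 0.367 by edgeR).

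With counts scaled by TMM, Unc93b1 did not share in value the pattern of the receptors it carries, and this difference was not tested. Its level was 556, 528, 547 and 499 CPM in the control and 596.5, 589.7, 596.1 and 602 CPM in the IgG libraries. It was the 1 member in which every IgG library lay above every control library, which held for 2.6% of all genes tested, while the reverse held for 1.57% and for 0 members. The change was small, with means of 532 ± 25.3 CPM in the control and 596.0 ± 4.89 CPM in the IgG libraries (SD, n = 4), and a log2 fold change of 0.16 (SE 0.09, adjusted p = 0.549 by edgeR). The IgG libraries lay as close together as counting error alone gives (SD 4.89 CPM, against 5.24 CPM from the counts). The change was largest in pair 4, at 0.27, where the endosomal receptors were lower, and it was 0.10, 0.16 and 0.12 in pairs 1, 2 and 3. With trends on exon length and GC content removed it was instead largest in pairs 1 and 3, at 0.32 and 0.35. It was then smallest in pair 4, at 0.08. Over the 8 libraries the tested genes whose log2 levels ran closest to those of Unc93b1, each centred on its mean, were Mrpl18, Il10ra and Nkiras1, with root mean square differences of 0.0211, 0.0331 and 0.0378, where the median over all genes was 0.247.

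**Figure D3:**
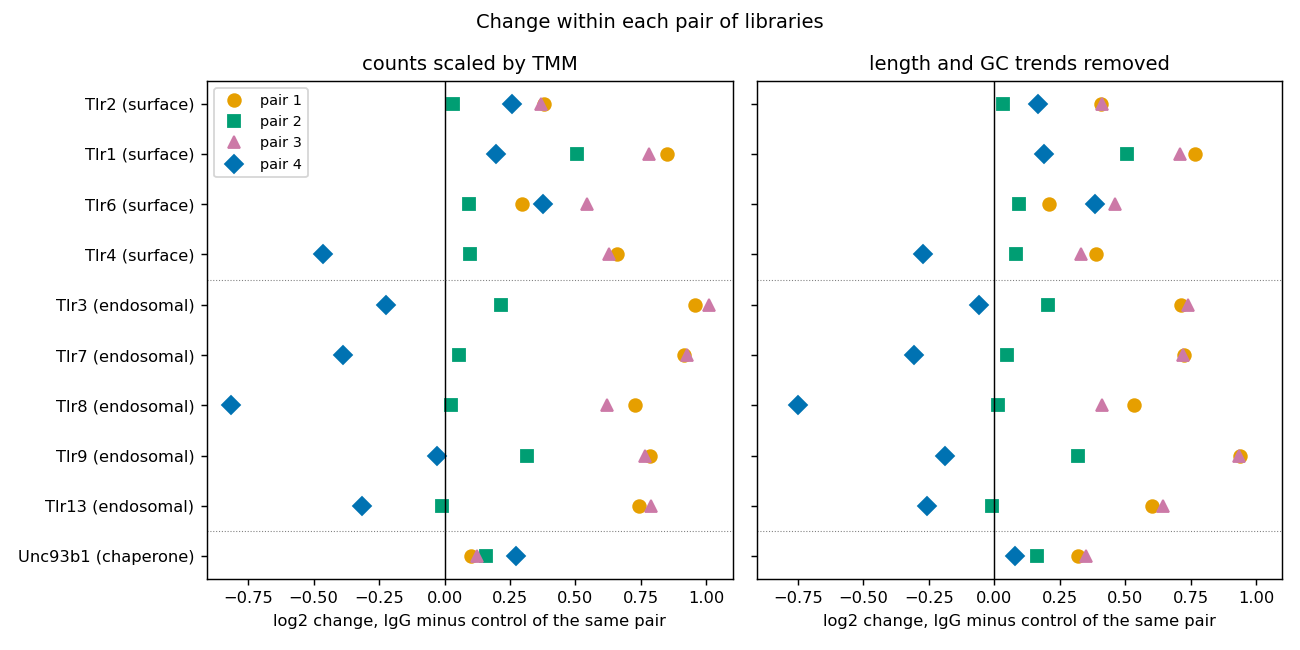
Log2 change of each gene in each of the 4 pairs, from counts scaled by TMM (left) and after removal of trends on exon length and GC content (right), with dotted lines between surface receptors, endosomal receptors and Unc93b1. The endosomal receptors and Tlr4 lie left of 0 in pair 4 in both panels, and Tlr1, Tlr2, Tlr6 and Unc93b1 lie right of 0 in every pair.

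Set against each other, endosomal and surface receptors had median fitted log2 fold changes of 0.38 and 0.29, against -0.01 over all genes tested. This order turned when pair 1 was left out (0.20 for the endosomal and 0.28 for the surface receptors) and when pair 3 was left out (0.19 and 0.24). Their medians by pair showed more. In pairs 1 to 4 the median change was 0.78, 0.06, 0.79 and -0.32 for the endosomal and 0.52, 0.10, 0.59 and 0.23 for the surface receptors. The medians over all genes lay between 0.00 and 0.02 in the 4 pairs. In pair 4 all 5 endosomal but 1 of 4 surface receptors were lower, where 49.9% of all genes were lower. For Tlr9 the difference in pair 4 was less than the counting SD, here and in the pattern counted below. Of the 10 members 4 were higher in all 4 pairs (Tlr1, Tlr2, Tlr6 and Unc93b1), and none of these was endosomal, against 10.4% of all genes. A log2 change above 0.5 in pairs 1 and 3 with a change below 0 in pair 4 was found for 6 members, all endosomal receptors and Tlr4, against 3.08% of all genes, and this pattern was chosen after the values were seen. With trends on exon length and GC content removed it was found for 4 members, without Tlr4 and Tlr8, against 2.17% of all genes. The pattern was not confined to these receptors. Before removal of trends, Cd180 (a receptor homologue), Tab2, Tab3 and Il1a alone among the tested pathway genes described below also had it. So did the microglial marker P2ry12.

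The same contrast stood in the sums of the receptors per exon length. These sums are made of the same values and are not further evidence. They weigh most the receptors of highest level, Tlr7 and Tlr13 among the endosomal and Tlr2 and Tlr1 among the surface receptors. Endosomal receptors summed to 171, 155.4, 159 and 155.4 RPKM in control libraries 1 to 4 and to 303, 161, 282 and 119 RPKM in the IgG libraries. Surface receptors summed to 85.7, 79.3, 87.0 and 78.9 RPKM in the control and to 127, 90.9, 128 and 89.4 RPKM in the IgG libraries. The endosomal sum was thus lower with IgG in pair 4 alone, whereas the surface sum was higher in each pair, although Tlr4 was lower in pair 4. The log2 ratio of the endosomal to the surface sum was 1.00, 0.97, 0.87 and 0.98 in the control and 1.25, 0.83, 1.14 and 0.41 in the IgG libraries, so that the IgG libraries lay outside the control range on both sides of it. With pairs 2 and 4 alone, without the IgG libraries of high mitochondrial share, the median log2 fold change of the endosomal receptors turned to -0.16, while that of the surface receptors was 0.19. The endosomal median change was 0.06 in pair 2 and -0.32 in pair 4, so the negative value came from pair 4. Pair 4 had trends on GC content and exon length of its own, opposite in sign to those of pairs 1 and 3.

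Many genes spread more among IgG than among control libraries. The SD of log2 CPM over the IgG libraries exceeded 2 times that over the control libraries for 48% of all genes, for 8 of the 10 members and for all 5 endosomal receptors. For Tlr7 the SD was 0.118 over the control and 0.748 over the IgG libraries, and for Tlr13 it was 0.0597 and 0.535. Tlr6, at 0.172 and 0.249, and Unc93b1, at 0.0693 and 0.0119, were the exceptions.

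Changes within a pair moved with the GC content of the gene, and most of the members are poor in GC. Over 15877 genes, which are not independent replicates, Spearman's rho between the change and the GC content was -0.411 and -0.41 in pairs 1 and 3, -0.025 in pair 2 and 0.333 in pair 4. For exon length it was 0.214, 0.215, -0.034 and -0.398 in the same order of pairs. The GC content was 40.0% for Tlr3, 41.0% for Tlr7, 40.1% for Tlr8, 43.6% for Tlr13 and 39.4% for Tlr4, where the median over genes was 49.7% and 10% of genes lay under 41.2%. Tlr1 and Tlr6 had 45.1% and 45.6%, and Tlr2 had 49.3%. Tlr9 at 56.2% and Unc93b1 at 57.3% were richer in GC than the median gene. In pairs 1 and 3 the change was 0.78 and 0.77 for Tlr9 and 0.10 and 0.12 for Unc93b1.

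**Figure D4:**
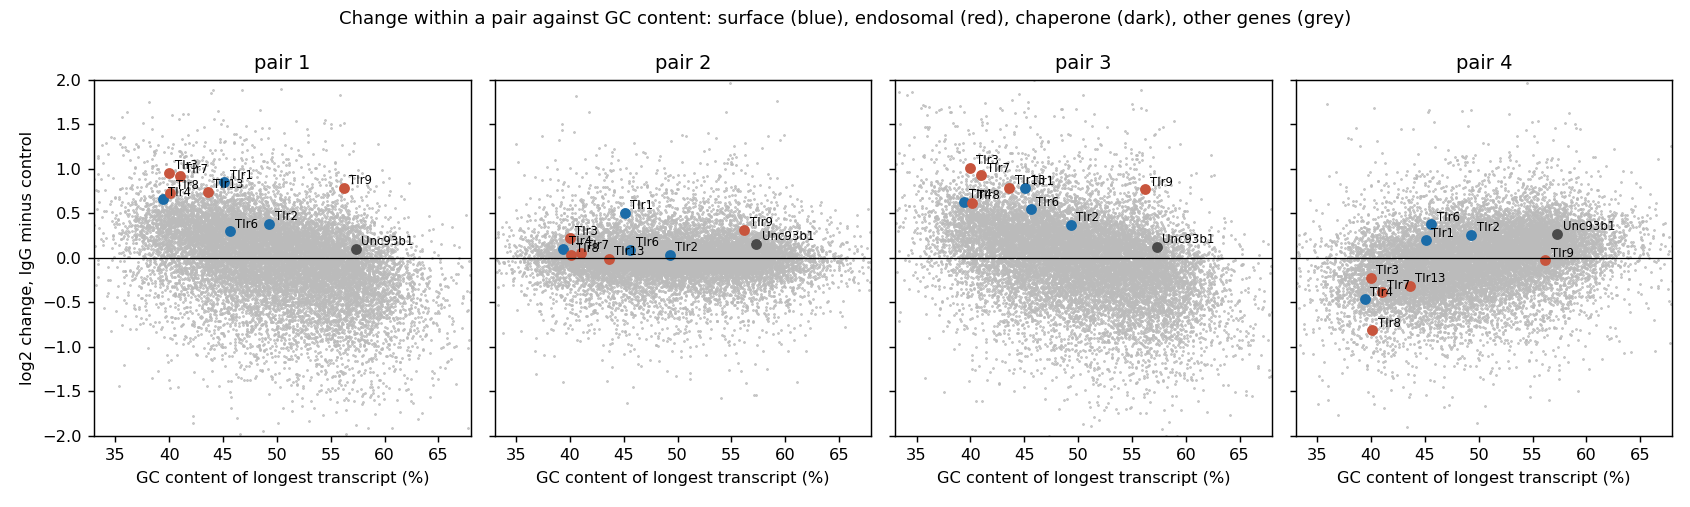
Log2 change within each pair against the GC content of the longest transcript, with all genes in grey and the members in colour. Points beyond 2 in either direction are not drawn. The cloud slopes down in pairs 1 and 3 and up in pair 4. The GC-poor endosomal receptors and Tlr4 lie above 0 in pairs 1 and 3 and below 0 in pair 4. Tlr9, at 56.2%, also lies above 0 in pairs 1 and 3.

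When the trends on exon length and GC content were removed from each library, the medians by pair became smaller in size. The removal was not complete for exon length, where rho was then -0.11, -0.012, -0.111 and 0.044 in pairs 1 to 4. For GC content rho then lay between -0.013 and 0. The median change of the endosomal receptors was then 0.72, 0.05, 0.72 and -0.26 in pairs 1 to 4, and that of the surface receptors 0.40, 0.09, 0.44 and 0.18. The change of Tlr3 in pair 4 moved from -0.22 to -0.06 that of Tlr4 from -0.47 to -0.27, and that of Tlr8 from -0.82 to -0.75. For Tlr9 the pattern became larger, with 0.94 and 0.93 in pairs 1 and 3, a move from -0.03 to -0.19 in pair 4 and a log2 fold change of 0.51. Unc93b1 changed its order of pairs, with 0.32, 0.16, 0.35 and 0.08 after the removal. This was the order of pairs of the endosomal median, although Unc93b1 stayed above 0 in pair 4. In this fit Tlr1 passed the adjustment (log2 fold change 0.55, adjusted p = 0.0374 by edgeR), where 1.11% of all genes were called higher and 1.17% in either direction, and 6 members had an unadjusted p under 0.05, against 8.55% of all genes on the higher side. The same 4 members were higher in all pairs, against 12.2% of all genes. What else differed between the pairs and its part in these changes was not tested.

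The other genes of the pathway, 73 in 6 lists, of which 65 were tested, were called in 3 cases, each higher with IgG, and in 0 cases lower, where 0.393% of all genes were called. At an unadjusted p under 0.05 there were 13 higher and 0 lower, where 6.35% of all genes were higher and 3.85% lower, and the median log2 fold change of the 65 was 0.12. Of the 3 called genes, Irf7, the interferon regulatory factor downstream of Tlr7 and Tlr9 and itself induced by interferon, was at 179, 103, 153 and 55.5 CPM in the control and 372, 213, 332 and 137 CPM in the IgG libraries. Irf7 rose in each pair, by 1.06, 1.05, 1.11 and 1.30 on the log2 scale (fit 1.13, SE 0.09, adjusted p = 0.00593 by edgeR). This evenness over the pairs set it apart from the receptors upstream of it in value, although the difference was not tested. The chemokine Ccl5 rose by 1.19 (SE 0.15, adjusted p = 0.0222 by edgeR) and the cytokine Il1b by 0.66 (SE 0.10, adjusted p = 0.0466 by edgeR), both also higher in each pair.

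Next to the receptors in the pathway stand 6 co-receptors and ligand carriers, of which 0 passed and 4 had an unadjusted p under 0.05, all higher, with a median log2 fold change of 0.43. The highest was Ly86, which partners the receptor homologue Cd180, at 0.52 (SE 0.10, adjusted p = 0.108 by edgeR). Ly86 was at 215, 186, 180 and 144 CPM in the control and 331, 226, 304 and 195 CPM in the IgG libraries, higher in each pair. The lowest was the scavenger receptor Cd36, at 0.11. Of 14 genes of folding, trafficking and cleavage 0 passed and 2 were higher at an unadjusted p under 0.05, with a median of 0.16, from -0.04 for the protease gene Ctsk to 0.44 for 5430427O19Rik. Of 19 adaptors and kinases 0 passed and 2 were higher at that level, with a median of 0.06, from -0.12 for the kinase gene Tbk1 to 0.33 for its relative Ikbke. Of 8 transcription factors Irf7 alone was called, with a list median of 0.01. Of 9 brakes on the pathway 8 were tested, 0 passed and 2 were higher at that level, with a median of 0.08, from -0.09 for the ubiquitin editor Tnfaip3 to 0.52 for the adaptor Pik3ap1. Of 17 response genes 10 were tested, Ccl5 and Il1b were called, and the median was 0.18. The 7 untested ones (Il6, Il10, Il12a, Il12b, Nos2, Cxcl1 and Ifnb1) did not reach the count minimum.

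**Figure D5:**
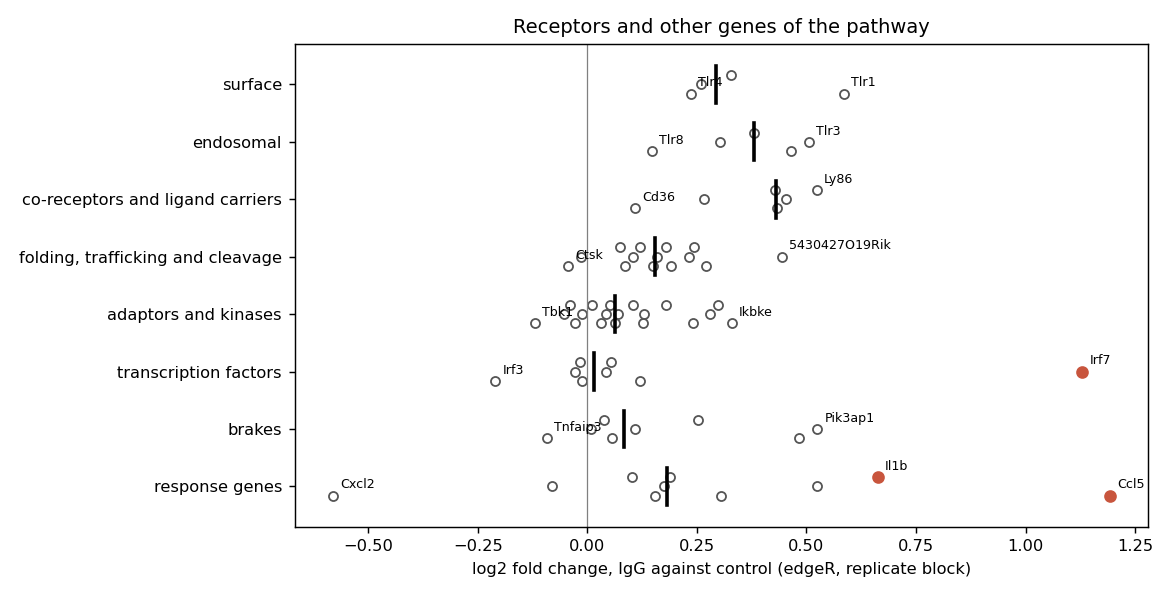
Fitted log2 fold change, IgG against control, of each tested receptor and pathway gene by list, with filled points for an adjusted p under 0.05 and a bar at the median of the list. Irf7, Ccl5 and Il1b are the filled points, and all receptors lie above 0 as open points.

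Markers of other cell types that could hold Toll-like receptors gave these values. Of 5 markers of border-associated macrophages 3 were tested, 0 passed and 1 was higher at an unadjusted p under 0.05, and the sum of all 5 was 56.7 to 81.9 CPM in the control and 51.5 to 108 CPM in the IgG libraries. The 3 markers of neutrophils summed to at most 1.55 CPM in the control and 2 CPM in the IgG libraries, with S100a9 and Ly6g at 0. Of the astrocyte markers 0 passed, also at an unadjusted p under 0.05, with a median log2 fold change of -0.13, of which 1 of 7 lay above 0, and sums of 154 to 172 CPM in the control and 139 to 164 CPM in the IgG libraries. The 5 markers of neurons summed to 34.6 to 55.7 CPM in the control and 32 to 44.8 CPM in the IgG libraries, and those of fibroblasts and endothelial cells to at most 14.2 CPM in any library. Of the 8 markers of the oligodendrocyte lineage 0 passed and 1 was lower at an unadjusted p under 0.05, and all 8 had a log2 fold change below 0, with a median of -0.14. The lowest was Olig2, at -0.50 (adjusted p = 0.235 by edgeR), with a value below control in each pair. Of the 11 markers of microglia 5 were higher and 0 lower at that unadjusted p, 8 had a log2 fold change above 0, and the median was 0.12. Aif1 was the 1 marker called, higher with IgG (log2 fold change 0.69, adjusted p = 0.0331 by edgeR). The part of other cell types in the levels of the receptors was not tested.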

How the data were processed

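Primary cultured microglia gave 4 control and 4 IgG libraries of polyA RNA. The authors removed reads with adapters or low quality and aligned the rest to mm10 (GRCm38). The submitters' processing notes name HISAT2 2.2.1, SAMtools 1.12, Picard 2.26.3, featureCounts, edgeR 3.36.0 and R 4.1.2. What the authors deposited are raw counts for each Ensembl gene, whole numbers with no normalization. The annotation, the use of strand and the treatment of reads with several alignments are not given in the sources used here.

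Counts were scaled with TMM, filtered with filterByExpr and fitted in R 4.3.3 by edgeR 4.0.16 (glmQLFit and glmQLFTest). The replicate number was a block and Benjamini-Hochberg adjustment ran over all genes tested. CPM used TMM library sizes, and log2 CPM a prior count of 2. The labels give a date for each library without saying what it marks, and no other separate origin, so p-values measure only the spread between these libraries, which may be technical. Exon length (union of exons) and GC content (longest transcript) came from GENCODE M21, in which 55144 of the 55385 identifiers were found. Trends on both were removed by lowess (span 0.3) from each library, fitted to its deviation from the mean of all libraries. Words of 50 bases were compared between annotated transcripts. Promoters came from RefSeq.

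The numbers pair the samples because the descriptions give same-numbered libraries 1 date. Their deviations from the group means correlated at 0.379, 0.268, 0.199 and 0.282 over 15877 genes, against -0.312 to 0.164 between different numbers. Libraries of a group differed by more than sampling noise, with a chi-square per degree of freedom of at least 5.

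Named were all 10 members, Tlr5, Tlr11 and Tlr12, the pathway genes called or at the ends of their list, and the 3 genes closest to Unc93b1. The members and lists were chosen with earlier results of these data known. On simulated data with 17309 genes tested, the test of IgG against control recovered 97% of 100 genes changed by 1 on the log2 scale and 100% of 100 changed by 2, with 13 false calls. The fitted changes of the members, 0.15 to 0.59, were smaller than both, so this recovery does not apply to them. Alternatives were no block, DESeq2 size factors, total counts, upper quartile scaling, no filter, at least 10 counts in every library, DESeq2 1.42.0, limma-voom (limma 3.58.1), the likelihood ratio test, the removal of trends and the omission of pairs. Restriction to pairs 2 and 4, and the omission of a pair with trends removed, were chosen after seeing the data.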

Additional observations from a re-analysis of the deposited data

How the results depend on the processing

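Without the replicate block 0 genes passed the adjustment, against 69 with it, and 148 against 320 met the criterion, while pathway genes called went from 3 to 0. The block, which pairs the libraries by the date in their labels, changed no call of a member. Scaling by total counts alone shifted the median of all genes to -0.11 and gave 37 genes, 1 pathway gene and 0 members by the criterion. With no filter on low counts 376 genes passed and 648 met the criterion, and 1 member and 5 pathway genes were called. DESeq2 called 231 genes, 1 member and 5 pathway genes, and the likelihood ratio test 327 genes, 528 by the criterion, 1 member and 5 pathway genes. After removal of length and GC trends 206 genes passed with 1 member. That member was Tlr1 in each case, with an adjusted p of 0.00297 without the filter, and over all alternatives it ran from 0.00297 to 0.692. Leaving out each pair in turn gave 0 to 182 genes past adjustment, 215 to 762 by the criterion, 0 to 1 members past adjustment, 0 to 4 by the criterion and 0 to 4 pathway genes. The lowest, 0 genes, came without pair 2 and the highest without pair 4, where the adjusted p of Tlr1 was 0.0185. With trends removed and pair 4 left out, 317 genes passed, 670 met the criterion, and 2 members (Tlr1, and Tlr9 with an adjusted p of 0.028) and 6 pathway genes were called, with 3 members by the criterion, which went to 0 without pair 1 or pair 3. Pairs 2 and 4 alone gave 190 genes past adjustment and 0 members by the criterion. The fit to pairs 2 and 4 leaves 1 residual degree of freedom, so its count cannot be ranked against that of all 4 pairs. There the log2 fold change turned to -0.18 for Tlr4, -0.17 for Tlr7, -0.39 for Tlr8 and -0.16 for Tlr13. Leaving out each pair in turn, Tlr8 ran from -0.0515 (without pair 1) to 0.4433 (without pair 4), with -0.015 without pair 3, and with trends removed as well it was -0.0974 without pair 1 and -0.059 without pair 3. The causes of these differences beyond the number of libraries were not tested. The median of the surface receptors stayed between 0.19 and 0.37 over the 19 alternatives, and that of the endosomal receptors ran from -0.16 to 0.61 and lay under that of the surface receptors without pair 1 and without pair 3, with trends removed or not, and with pairs 2 and 4 alone.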

Other observations

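Among the members themselves, the pair with the most similar levels over the 8 libraries was Tlr3 and Tlr7, with a root mean square difference of 0.0963 between log2 CPM values centred on each gene's mean. Tlr7 was the nearest of all tested genes to Tlr3, where the median over all genes was 0.594. Tlr4, a surface receptor, was next closest to Tlr7 (0.106) and to Tlr8 (0.113). For Tlr1 the nearest genes were Zfp808 (0.0565), Parp11 (0.0726) and Il4ra (0.0805), against a median of 0.464. For Tlr7 they were Ascc3 (0.062), Diaph2 (0.0697) and Ptbp3 (0.0919), against a median of 0.545. These genes were named after their values were seen, and the values include the dependence on GC content described above.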
